A study of Mus musculus with 31 samples.

Results

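Interferon gamma, encoded by Ifng, and the chains of its receptor, encoded by Ifngr1 and Ifngr2, were followed in mouse skin on 31 Affymetrix arrays. The 3 genes were found by symbol in the array's probe annotation, where 4 of 45101 probe sets carried a single symbol of theirs: 1 for Ifng, 1 for Ifngr1 and 2 for Ifngr2. The probe set of highest mean stood for each gene, as for all 18193 genes measured. The mice were of the inbred strain C3H/HeJ and their skin was treated on the surface for established AA, read here as alopecia areata, an autoimmune loss of hair. The groups were skin given PBS, a salt solution without drug, at 0, 6 and 12 weeks, and skin given a Janus kinase inhibitor, labelled jak1i or jak3i, at 0, 6, 12 and 24 weeks. Each group held 3 arrays, called biological replicates by the submitters, except the 24-week groups of jak1i and jak3i, which held 2 each. PBS skin at 24 weeks was not analysed here. Doses, the structures behind the codes jak1i and jak3i, and whether the same mice were biopsied again at later weeks are not stated in those sources, while the label W in the sample names was read as weeks. With separate animals not stated for every array, the p-values speak only of the scatter among the arrays.

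Interferon gamma is a cytokine released mainly by activated T cells and natural killer cells. It binds IFNGR1, the ligand-binding chain, together with IFNGR2, the chain needed for signalling, and these chains bring the kinases JAK1 and JAK2 together. The signal they pass on switches on genes such as Irf1, the chemokines Cxcl9, Cxcl10 and Cxcl11 and the antigen-presentation genes. In skin with alopecia areata, interferon gamma is known as a cytokine of the T cells that gather around hair follicles, and JAK3, which works with the common gamma chain, relays IL-2 and IL-15 signals to such cells.

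The values were log2 values after RMA, a summary of each probe set's brightness. Array medians lay between 6.05 and 6.24, the arrays correlated with each other at 0.912 to 0.995, and no pair of arrays was identical. Markers of the outer skin layer were high on every array, with a mean log2 value of 12.62 to 13.76 over 6 epidermis genes. The PBS skin at 12 weeks stood apart in skeletal muscle: the summed signal of 7 muscle genes was 556 to 6141 there, and 25741 to 97023 in every other group. Hair shaft genes varied widely, with a summed signal of 304 to 70756 for 7 genes over all arrays. Fits with the hair shaft or muscle mean as a covariate are given beside the main results on the 3 genes.

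The promoters of the 3 genes are shown because the genes behaved differently under treatment. Each run gives the 250 bases before the annotated start from RefSeq on build GRCm38.p6, plus strand, with matches to short motifs in capitals. For Ifng, at chr10:118440796-118441045, the capitals mark TATAAA, the TATA box. For Ifngr1, at chr10:19591699-19591948, and Ifngr2, at chr16:91546809-91547058, they mark GGGCGG, the GC box, or its reverse complement.
Ifng: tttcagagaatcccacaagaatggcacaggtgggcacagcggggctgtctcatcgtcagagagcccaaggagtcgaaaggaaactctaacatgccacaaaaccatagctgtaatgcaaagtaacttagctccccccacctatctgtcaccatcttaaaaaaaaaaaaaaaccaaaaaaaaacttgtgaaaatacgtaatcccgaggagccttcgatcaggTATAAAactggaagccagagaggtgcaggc
Ifngr1: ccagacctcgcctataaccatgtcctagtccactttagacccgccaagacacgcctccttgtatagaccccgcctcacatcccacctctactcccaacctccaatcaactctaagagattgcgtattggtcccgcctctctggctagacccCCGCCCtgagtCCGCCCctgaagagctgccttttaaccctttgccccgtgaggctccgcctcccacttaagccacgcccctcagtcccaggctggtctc
Ifngr2: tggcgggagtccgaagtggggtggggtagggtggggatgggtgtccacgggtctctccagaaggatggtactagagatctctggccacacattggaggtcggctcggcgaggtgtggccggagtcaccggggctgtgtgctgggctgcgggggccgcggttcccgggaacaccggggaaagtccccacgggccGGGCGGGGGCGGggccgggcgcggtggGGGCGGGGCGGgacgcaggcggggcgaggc
Both strands were searched for each motif. The Ifng window held 1 TATAAA, 30 bases before the start, and no GGGCGG. The Ifngr1 window held 2 matches to GGGCGG and the Ifngr2 window 4, of which the last pair overlap by 1 base, and neither window held TATAAA. Over 32851 promoter windows of the same length, 12.4% held TATAAA and 32.7% held GGGCGG. A match describes the letters and is not a measured binding site.

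Ifng was higher in all arms before treatment, and under PBS, than in skin given either inhibitor for 6 or 12 weeks. In PBS skin the log2 value of Ifng was 6.65, 6.64 and 7.04 at 0 weeks, 5.72, 7.03 and 7.75 at 6 weeks, and 7.18, 7.05 and 8.01 at 12 weeks. In the jak1i arm it was 7.07, 6.59 and 8.01 at 0 weeks, 4.49, 4.98 and 4.09 at 6 weeks, and 4.14, 4.50 and 4.30 at 12 weeks. In the jak3i arm it was 7.86, 7.34 and 6.02 at 0 weeks, 4.86, 4.23 and 4.29 at 6 weeks, and 4.16, 3.84 and 5.02 at 12 weeks. Every treated array at 6 and 12 weeks lay below every PBS array of any week and below every array taken before treatment. The treated values also lay below 6.18, the median of all values on the arrays, so these arrays do not show how much Ifng transcript was left. The PBS value of 5.72 and the jak3i value of 6.02 at 0 weeks lay below that median as well. At 24 weeks the arrays of each inhibitor came apart, at 6.64 and 4.89 in the jak1i arm and 7.14 and 4.48 in the jak3i arm.

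**Figure D1:**
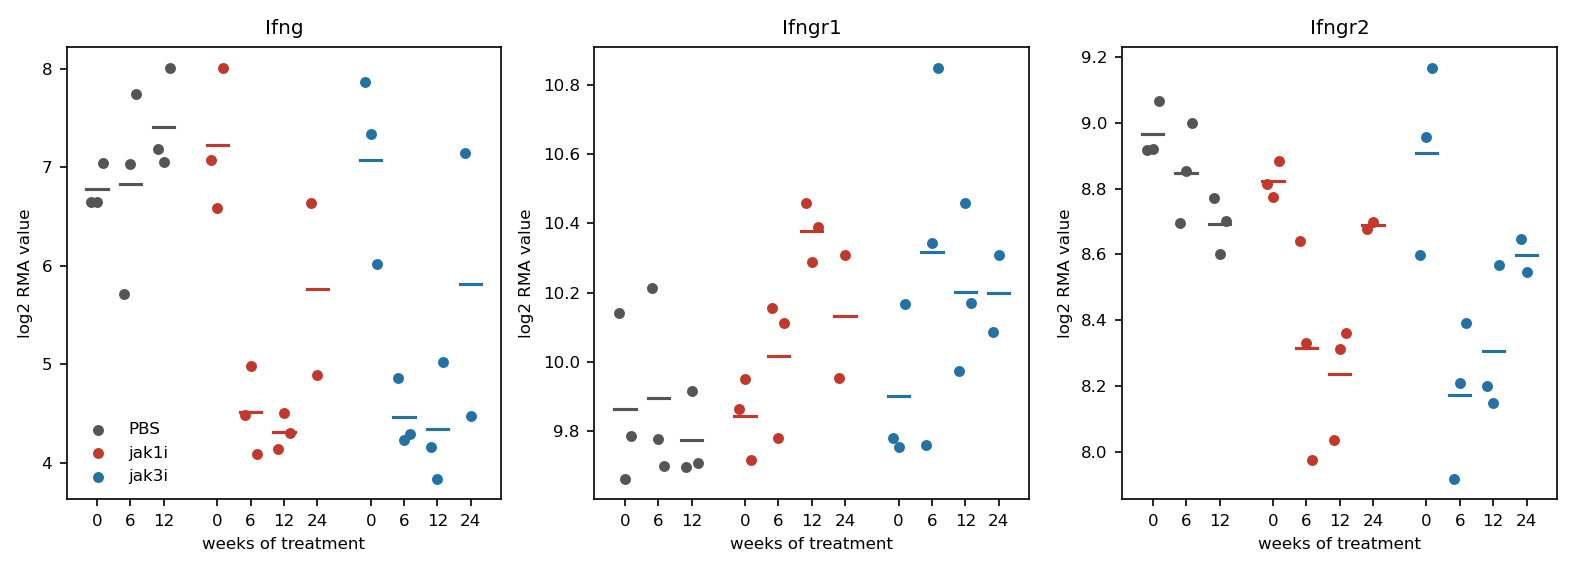
Log2 RMA value (vertical axes, a separate scale for each gene) of Ifng, Ifngr1 and Ifngr2 by week of treatment, for PBS (grey), jak1i (red) and jak3i (blue). Each point is 1 array and each bar the mean of its group. The 12 treated arrays at 6 and 12 weeks lie between 3.84 and 5.02 for Ifng, under the lowest PBS array at 5.72.

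Before treatment the arms were not distinguished by the test in any of the 3 genes. At 0 weeks Ifng differed from PBS by 0.44 (SE 0.60, limma adjusted p = 0.999) in the jak1i arm and by 0.30 (SE 0.60, adjusted p = 0.977) in the jak3i arm, and 0% of all genes were called, that is, had a Benjamini-Hochberg adjusted p under 0.05, with 917 and 1378 genes at an unadjusted p under 0.05. These intervals are wide: the 95% interval of the first difference ran from -0.80 to 1.69. Ifngr2 was already lower in the jak1i arm at that time without overlap, by a small log2 difference of -0.14 (adjusted p = 0.999), as were 4.51% of genes.

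At 12 weeks Ifng averaged 7.41 ± 0.52 (SD, n = 3) under PBS, 4.31 ± 0.18 (SD, n = 3) under jak1i and 4.34 ± 0.61 (SD, n = 3) under jak3i. The jak1i arrays were 8.58-fold lower, a log2 difference of -3.10 (SE 0.60, 95% interval -4.35 to -1.85, limma adjusted p = 0.00342). The jak3i arrays were 8.42-fold lower, a log2 difference of -3.07 (SE 0.60, 95% interval -4.32 to -1.83, adjusted p = 0.00318). These folds are of RMA values, and with treated arrays this dim they do not give the size of the change in transcript. Both comparisons use the same PBS arrays. Over all genes, 6.51% were called lower in the jak1i comparison and 7.28% in the jak3i comparison, and 18.9% and 19.7% had lower values without overlap. Neither call changed when any single array was left out, with differences of -3.28 to -2.80 for jak1i and -3.41 to -2.78 for jak3i. The hair shaft and muscle genes moved with this comparison: the differences were -1.99 (adjusted p = 0.0607) and -1.80 (adjusted p = 0.136) with the hair shaft mean as a covariate, and -3.15 (adjusted p = 0.828) and -3.12 (adjusted p = 0.979) with the muscle mean. Against PBS at 6 weeks, where muscle genes were high, the 12-week jak1i difference was -2.52 (adjusted p = 0.0687).

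At 6 weeks the differences were smaller than at 12 weeks and the PBS arrays more scattered. Ifng averaged 6.83 ± 1.03 (SD, n = 3) under PBS, 4.52 ± 0.45 (SD, n = 3) under jak1i and 4.46 ± 0.35 (SD, n = 3) under jak3i. The jak3i difference of -2.37 (SE 0.60, limma adjusted p = 0.0431) was called, where 1.5% of all genes were called lower, and the jak1i difference of -2.31 (SE 0.60, adjusted p = 0.0559) was not, where 1.22% were. Both groups lay below PBS without overlap, as did 8.79% of genes for jak1i and 7.93% for jak3i. The jak3i call was lost without jak3i replicate 2 (-2.25, adjusted p = 0.131) or 3 (-2.29, adjusted p = 0.121) of that week, and without PBS replicate 2 (-2.27, adjusted p = 0.193) or 3 (-1.91, adjusted p = 0.192). The jak1i difference was called without PBS replicate 1 (-2.87, adjusted p = 0.0203), the PBS array with the lowest Ifng. With the hair shaft mean as a covariate the jak3i difference was -1.79 (adjusted p = 0.0663) and the jak1i difference -1.90 (adjusted p = 0.0397), and with the muscle mean the jak3i difference was -2.37 (adjusted p = 0.0536).

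Measured against its own start, each inhibitor arm also fell in Ifng. The difference of means in this comparison uses no PBS array. The spread behind its SE and p-values was estimated from all 31 arrays, PBS included. The jak1i arm fell by 2.71 at 6 weeks (SE 0.60, limma adjusted p = 0.00821) and by 2.91 at 12 weeks (SE 0.60, adjusted p = 0.00457), where 6.43% and 6.5% of genes were called lower. The jak3i arm fell by 2.61 at 6 weeks (SE 0.60, adjusted p = 0.0216) and by 2.73 at 12 weeks (SE 0.60, adjusted p = 0.0208), where 2.05% and 2.85% were called lower. At 12 weeks both arms lay below their start without overlap, as did 19.7% of genes in the jak1i arm and 17.4% in the jak3i arm. Fitted with the hair shaft mean, the jak1i change at 12 weeks was -1.82 (adjusted p = 0.0611) and the jak3i changes were -1.84 at 6 weeks (adjusted p = 0.0734) and -1.39 at 12 weeks (adjusted p = 0.673), none of them called. The jak1i calls held without any single array. The jak3i call at 6 weeks was lost without replicate 1 (-2.22, adjusted p = 0.0869) or 2 (-2.48, adjusted p = 0.132) at 0 weeks, or replicate 2 (-2.50, adjusted p = 0.0855) or 3 (-2.53, adjusted p = 0.0667) at 6 weeks. The jak3i call at 12 weeks was lost without replicate 1 (-2.34, adjusted p = 0.0565) or 2 (-2.60, adjusted p = 0.126) at 0 weeks, or replicate 1 (-2.65, adjusted p = 0.0747) or 2 (-2.48, adjusted p = 0.0726) at 12 weeks. PBS skin changed by 0.05 at 6 weeks (SE 0.60, adjusted p = 0.987) and by 0.63 at 12 weeks (SE 0.60, adjusted p = 0.663), and its 12-week arrays all lay above its 0-week arrays, as did 15.7% of genes.

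Because 12 treated arrays carried low Ifng, both inhibitors at 6 and 12 weeks were also pooled, a comparison added after the single ones had been seen. Ifng averaged 4.41 ± 0.37 (SD, n = 12) on the treated arrays and 7.12 ± 0.79 (SD, n = 6) on the PBS arrays of those weeks. The difference was -2.71 (SE 0.37, 95% interval -3.48 to -1.95, limma adjusted p = 4.34e-05), 6.56-fold lower, in a comparison that called 14.4% of genes lower. Like the 12-week folds, this is a fold of RMA values and does not give the size of the change in transcript. Against both arms' own start it was -2.74 (SE 0.37, adjusted p = 2.55e-05), where 16.1% of genes were called lower. With the hair shaft mean as a covariate these became -1.87 (adjusted p = 0.00319) and -1.81 (adjusted p = 0.00399), both still called. With the muscle mean they were -2.74 (adjusted p = 0.104) against PBS and -2.75 (adjusted p = 1.3e-04) against the start.

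Both receptor genes changed less than Ifng, and their differences from PBS at 6 and 12 weeks had opposite signs. Those of Ifngr1 were not called for any single inhibitor and week. Ifngr2, the signalling chain, fell with treatment. Its log2 value under PBS was 8.92, 8.92 and 9.07 at 0 weeks, 8.69, 8.85 and 9.00 at 6 weeks, and 8.77, 8.60 and 8.70 at 12 weeks. Under jak1i it was 8.81, 8.78 and 8.88 at 0 weeks, 8.64, 8.33 and 7.97 at 6 weeks, and 8.04, 8.31 and 8.36 at 12 weeks. Under jak3i it was 8.60, 8.96 and 9.17 at 0 weeks, 7.92, 8.21 and 8.39 at 6 weeks, and 8.20, 8.15 and 8.57 at 12 weeks. The treated arrays lay below the PBS arrays of the same week without overlap in all 4 comparisons at 6 and 12 weeks, although jak1i replicate 1 at 6 weeks, at 8.64, lay above the lowest 12-week PBS array. Over all genes, 8.79% (jak1i) and 7.93% (jak3i) at 6 weeks and 18.9% and 19.7% at 12 weeks were lower without overlap. At 24 weeks Ifngr2 was 8.68 and 8.70 under jak1i and 8.65 and 8.55 under jak3i. On this probe set these 4 arrays thus lay close together although their Ifng values came apart. On the other Ifngr2 probe set they were 7.33 and 7.12 under jak1i and 7.51 and 7.51 under jak3i.

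For Ifngr2 the jak3i arrays at 6 weeks differed from PBS by -0.68 (SE 0.16, limma adjusted p = 0.0269). The jak1i difference was -0.53 at 6 weeks (adjusted p = 0.0916) and -0.46 at 12 weeks (adjusted p = 0.0549), and the jak3i difference at 12 weeks was -0.39 (adjusted p = 0.0869). Only the jak3i difference at 6 weeks was called among these 4. That call was lost without jak3i replicate 1 (-0.55, adjusted p = 0.0521) or 2 (-0.69, adjusted p = 0.0640), or PBS replicate 2 (-0.67, adjusted p = 0.112) or 3 (-0.60, adjusted p = 0.135). Conversely, the jak3i difference at 12 weeks was called without jak3i replicate 3 (-0.52, adjusted p = 0.0416). On the other Ifngr2 probe set the differences at 12 weeks were -0.38 for jak1i (adjusted p = 0.0122) and -0.30 for jak3i (adjusted p = 0.0315), and the jak1i difference at 6 weeks was -0.38 (adjusted p = 0.0409), all called there.

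Against its own start Ifngr2 fell in both inhibitor arms. It fell by 0.51 at 6 weeks (limma adjusted p = 0.0366) and 0.59 at 12 weeks (adjusted p = 0.0150) under jak1i, and by 0.74 at 6 weeks (adjusted p = 0.0131) and 0.60 at 12 weeks (adjusted p = 0.0286) under jak3i. The jak1i call at 6 weeks was lost without any of 5 arrays: replicates 1, 2 and 3 at 0 weeks (-0.51, -0.53 and -0.48) and replicates 2 and 3 at 6 weeks (-0.52 and -0.34), with adjusted p from 0.0511 to 0.209. The jak1i call at 12 weeks was lost without replicate 1 of that week (-0.49, adjusted p = 0.0870), and the jak3i call at 6 weeks without replicate 2 at 0 weeks (-0.71, adjusted p = 0.0882). The jak3i call at 12 weeks was lost without replicates 2 (-0.58) or 3 (-0.47) at 0 weeks, or replicates 1 (-0.55) or 2 (-0.52) at 12 weeks. A fit with the hair shaft mean gave 12-week changes of -0.65 under jak1i (adjusted p = 0.0545) and -0.69 under jak3i (adjusted p = 0.657), not called. PBS skin differed from its own start by -0.12 at 6 weeks (adjusted p = 0.862) and -0.28 at 12 weeks (adjusted p = 0.402), the latter without overlap, as for 8.18% of genes. Net of PBS, the 12-week changes were -0.31 under jak1i (adjusted p = 0.394) and -0.33 under jak3i (adjusted p = 0.371). In the added comparison of all 12 treated arrays, Ifngr2 was 8.26 ± 0.22 (SD, n = 12) against 8.77 ± 0.14 (SD, n = 6) under PBS, a difference of -0.51 (SE 0.10, limma adjusted p = 5.96e-04). Against the start it was -0.61 (SE 0.10, adjusted p = 9.18e-05), and both calls held without any single array.

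Ifngr1, the ligand-binding chain, leaned the other way. Its log2 value under PBS was 10.14, 9.66 and 9.79 at 0 weeks, 10.21, 9.78 and 9.70 at 6 weeks, and 9.69, 9.92 and 9.71 at 12 weeks. Under jak1i it was 9.86, 9.95 and 9.72 at 0 weeks, 10.16, 9.78 and 10.11 at 6 weeks, 10.46, 10.29 and 10.39 at 12 weeks, and 9.95 and 10.31 at 24 weeks. Under jak3i it was 9.78, 9.75 and 10.17 at 0 weeks, 9.76, 10.34 and 10.85 at 6 weeks, 9.97, 10.46 and 10.17 at 12 weeks, and 10.09 and 10.31 at 24 weeks. The 12-week inhibitor arrays lay above the 12-week PBS arrays without overlap, as did 17.3% of genes for jak1i and 18.6% for jak3i, while at 6 weeks the groups overlapped.

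No comparison of a single inhibitor and week called Ifngr1. At 12 weeks it differed from PBS by 0.61 under jak1i (SE 0.20, limma adjusted p = 0.0520) and by 0.43 under jak3i (SE 0.20, adjusted p = 0.146), and at 6 weeks by 0.12 (adjusted p = 0.792) and 0.42 (adjusted p = 0.300). Without PBS replicate 2 the 12-week jak1i difference was 0.68 and called (adjusted p = 0.0494), and without jak3i replicate 1 the 6-week jak3i difference was 0.70 and called (adjusted p = 0.0348). Over the 12 treated arrays Ifngr1 was 10.23 ± 0.31 (SD, n = 12) against 9.84 ± 0.20 (SD, n = 6) under PBS. That added difference was 0.39 (SE 0.13, limma adjusted p = 0.0204), in a comparison that called 16.3% of genes higher, and against the start it was 0.36 (SE 0.13, adjusted p = 0.0293), where 20.7% were called higher. The call against PBS was lost without PBS replicate 2 (0.36) or 3 (0.34) at 6 weeks or PBS replicate 1 (0.37) or 3 (0.38) at 12 weeks. The call against the start was lost without jak1i replicate 1 (0.36) or 3 (0.33), or jak3i replicate 1 (0.33) or 2 (0.32), at 0 weeks, or jak3i replicate 2 (0.32) at 12 weeks.

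Ifngr1 also moved with the hair shaft genes. Among the 6 treated arrays at 6 weeks, 2 had high hair shaft genes: jak1i replicate 2, with a mean log2 value of 12.72, and jak3i replicate 1, with 13.13. Those 2 arrays had the lowest Ifngr1 of all treated arrays, 9.78 and 9.76. Their Ifng, at 4.98 and 4.86, was the highest of each 6-week inhibitor group, though under the lowest PBS array at 5.72. With the hair shaft mean as a covariate the Ifngr1 difference was 0.09 against PBS (limma adjusted p = 0.678) and 0.02 against the start (adjusted p = 0.924). Fat cell genes were higher in the added comparison of the 12 treated arrays, 5 of 5 called. Of all genes, 16.3% were called higher against PBS and 20.7% against the start. The summed signal of the fat cell genes was 17798 to 48612 on the treated arrays and 3452 to 24268 on the PBS arrays of those weeks. The part of fat cells in the Ifngr1 difference was not tested.

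**Figure D2:**
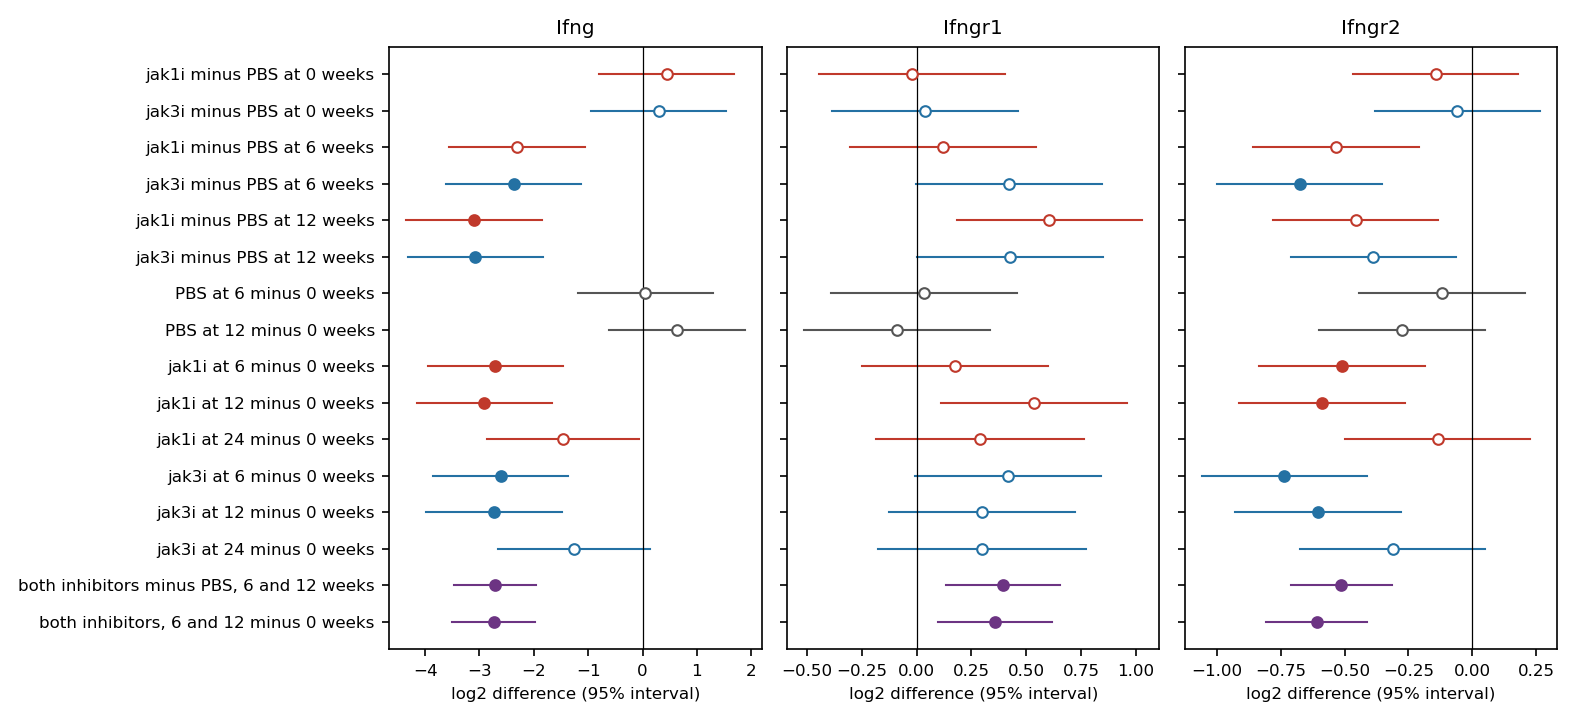
Log2 differences (horizontal axes, separate scales) of Ifng, Ifngr1 and Ifngr2 in 16 comparisons, with bars for the 95% interval and filled points where the limma adjusted p was under 0.05. The Ifng differences of both inhibitors at 6 and 12 weeks lie between -3.10 and -2.31, with Ifngr2 to the left of 0 and Ifngr1 to the right.

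Setting each arm's change from 0 weeks against the change of PBS gave the same direction for Ifng with wider errors. From 0 to 12 weeks the Ifng change was -3.54 relative to PBS under jak1i (SE 0.85, limma adjusted p = 0.0190) and -3.37 under jak3i (SE 0.85, adjusted p = 0.0326), where 3.86% and 1.96% of genes were called lower, and from 0 to 6 weeks it was -2.76 (adjusted p = 0.123) and -2.67 (adjusted p = 0.222). No such difference in change was called for Ifngr1 or Ifngr2. Fitted with the hair shaft mean, the 12-week values were -2.34 (adjusted p = 0.0940) and -1.91 (adjusted p = 0.356), and with the muscle mean -3.59 (adjusted p = 0.637) and -3.41 (adjusted p = 0.643), none of them called. The jak1i value was not called without jak1i replicate 3 at 0 weeks (-3.15), PBS replicate 1 at 0 weeks (-3.48) or PBS replicate 3 at 12 weeks (-3.25). The jak3i value was not called without any of 9 arrays: jak3i replicates 1 (-2.98) or 2 (-3.24) at 0 weeks, jak3i replicates 1 (-3.28) or 2 (-3.12) at 12 weeks, PBS replicates 1 (-3.30), 2 (-3.30) or 3 (-3.50) at 0 weeks, and PBS replicates 1 (-3.49) or 3 (-3.07) at 12 weeks.

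The inhibitors were not told apart in any of the 3 genes at any week, over 12 comparisons with limma adjusted p of 0.983 or more. For Ifng, jak1i minus jak3i was 0.06 at 6 weeks (95% interval -1.19 to 1.30), -0.03 at 12 weeks (95% interval -1.27 to 1.22) and -0.05 at 24 weeks (95% interval -1.57 to 1.48). These intervals leave room for differences of over 1 log2 unit either way. For Ifngr2 the 12-week difference was -0.07 (95% interval -0.39 to 0.25), and for Ifngr1 it was 0.18 (95% interval -0.25 to 0.60).

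By group mean, Ifng was ordered from PBS at 12 weeks (7.41) through jak1i and jak3i at 0 weeks (7.22 and 7.07) and PBS at 6 and 0 weeks (6.83 and 6.78) to the 24-week groups (5.81 and 5.76) and the 4 treated groups at 6 and 12 weeks (4.52 to 4.31). Neighbours in this order differed by less than the larger of their SDs, except the step from jak1i at 24 weeks to jak1i at 6 weeks, where the gap of 1.25 barely passed the SD of 1.23. In Ifngr1 no neighbouring pair differed by more than its larger SD, from jak1i at 12 weeks (10.38) at the top to PBS at 12 weeks (9.77) at the bottom. In Ifngr2 the order ran from PBS at 0 weeks (8.97) to jak3i at 6 weeks (8.17), and 2 steps passed the larger SD: from jak1i at 0 weeks to PBS at 12 weeks, and from jak1i to jak3i at 24 weeks.

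The genes that lead a lymphocyte to make interferon gamma were read next, as 14 genes for the IL-12 and IL-18 routes and for the transcription factors of the Ifng locus; a further listed gene, Il27, was not analysed here. At 12 weeks 7 of 14 were called lower under jak1i and 5 of 14 under jak3i (of all genes 6.51% and 7.28%), and none was called higher; the median difference was -0.51 and -0.49, against -0.03 over all genes in each comparison. Tbx21, which encodes T-bet, the factor that opens the Ifng gene in T helper 1 cells, was -1.47 (SE 0.32, limma adjusted p = 0.00652) and -1.54 (SE 0.32, adjusted p = 0.00501). Runx3, which works with T-bet at Ifng, was -0.83 and -0.93. Il18r1 and Il18rap, the chains of the IL-18 receptor, were -1.30 and -1.40, and -1.08 and -0.87. Stat4, the relay of IL-12, was -0.84 and -0.90. All of these were called lower under both inhibitors, and Il12rb1 (-0.64 under jak1i) and Il27ra (-0.66 under jak1i) were called lower under jak1i. The members not called at 12 weeks included the cytokines Il12a (0.20 and 0.06), Il12b (-0.15 and -0.27), Il15 (-0.05 and 0.34) and Il18 (-0.39 and -0.45), and Eomes, a T-bet relative, at -0.35 and -0.47.

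At 12 weeks the Tbx21 arrays of each inhibitor lay below the PBS arrays without overlap, as did 18.9% of genes for jak1i and 19.7% for jak3i. The log2 value of Tbx21 under PBS was 6.19, 5.98 and 6.60 at 12 weeks. Under jak1i it was 4.81, 5.23 and 4.33, and under jak3i 4.77, 4.69 and 4.68 at that week. These treated values and the PBS value of 5.98 lay below 6.18, the median of all values on the arrays. At 24 weeks Tbx21 was 5.81 and 5.04 under jak1i and 6.85 and 5.47 under jak3i. It was again higher on replicate 1, the array with the higher Ifng in each arm.

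Of the 5 relay genes measured downstream of the receptor, those that are themselves induced by interferon were lower and the kinases were not called at 12 weeks. Irf1, a transcription factor induced by interferon gamma, was -1.58 (SE 0.38, limma adjusted p = 0.0115) under jak1i and -1.45 (SE 0.38, adjusted p = 0.0158) under jak3i. Irf9, a DNA-binding subunit of the complex that answers type I interferon, was -0.92 and -0.89, also called. Jak1 was 0.07 and 0.10, Jak2 was -0.40 and -0.29, and Stat3 was -0.19 and -0.11, none of them called. Stat3 was different at 6 weeks, when it was called lower at -0.78 under jak1i and -0.76 under jak3i.

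Of 8 listed brakes on interferon signalling, 2 were called lower under each inhibitor at 12 weeks (of all genes 6.51% and 7.28%), and none was called higher. Usp18, an interferon-induced inhibitor of the type I interferon receptor, was -2.11 (SE 0.39, limma adjusted p = 0.00275) and -1.60 (SE 0.39, adjusted p = 0.0111). The phosphatase Ptpn1 was -0.65 and -0.74. Socs1, the main inhibitor of JAK activity at the interferon gamma receptor, was -0.84 (adjusted p = 0.0849) and -0.83 (adjusted p = 0.0755), and Socs3 was -0.43 and -0.07. In the added comparison of all treated arrays Socs1 was called, at -0.91 (SE 0.20, adjusted p = 0.00171).

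The targets of interferon gamma were lower as a group. Of 33 measured, 25 were called lower under jak1i and 21 under jak3i at 12 weeks (of all genes 6.51% and 7.28%), none higher, and all 33 differences were negative in both comparisons, which share their PBS arrays. The median difference was -1.44 and -1.21, against -0.03 over all genes. Over all 18193 genes these comparisons called 2431 and 3148 in either direction, 184 and 113 with the hair shaft covariate and none with the muscle covariate. The members with the largest differences were the chemokine Cxcl11 (-4.54 and -4.62), the guanylate-binding protein gene Gbp8 (-4.45 and -3.66), Ubd, which encodes a ubiquitin-like protein (-4.20 and -4.52), and the chemokine Cxcl9 (-4.02 and -4.27). At 6 weeks 11 and 20 of 33 were called lower (of all genes 1.22% and 1.5%). Against each arm's own start at 12 weeks, where PBS arrays entered only the shared spread, 22 of 33 were called lower under jak1i and 19 of 33 under jak3i. Of all genes, 6.5% and 2.85% were called lower there. Nos2, at -0.21 and -0.13 at 12 weeks, and B2m, at -0.23 in both, were not called; they were singled out after their values had been seen. The listed Gbp4, Gbp5, Gbp9 and Tgtp1 were not analysed here.

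**Figure D3:**
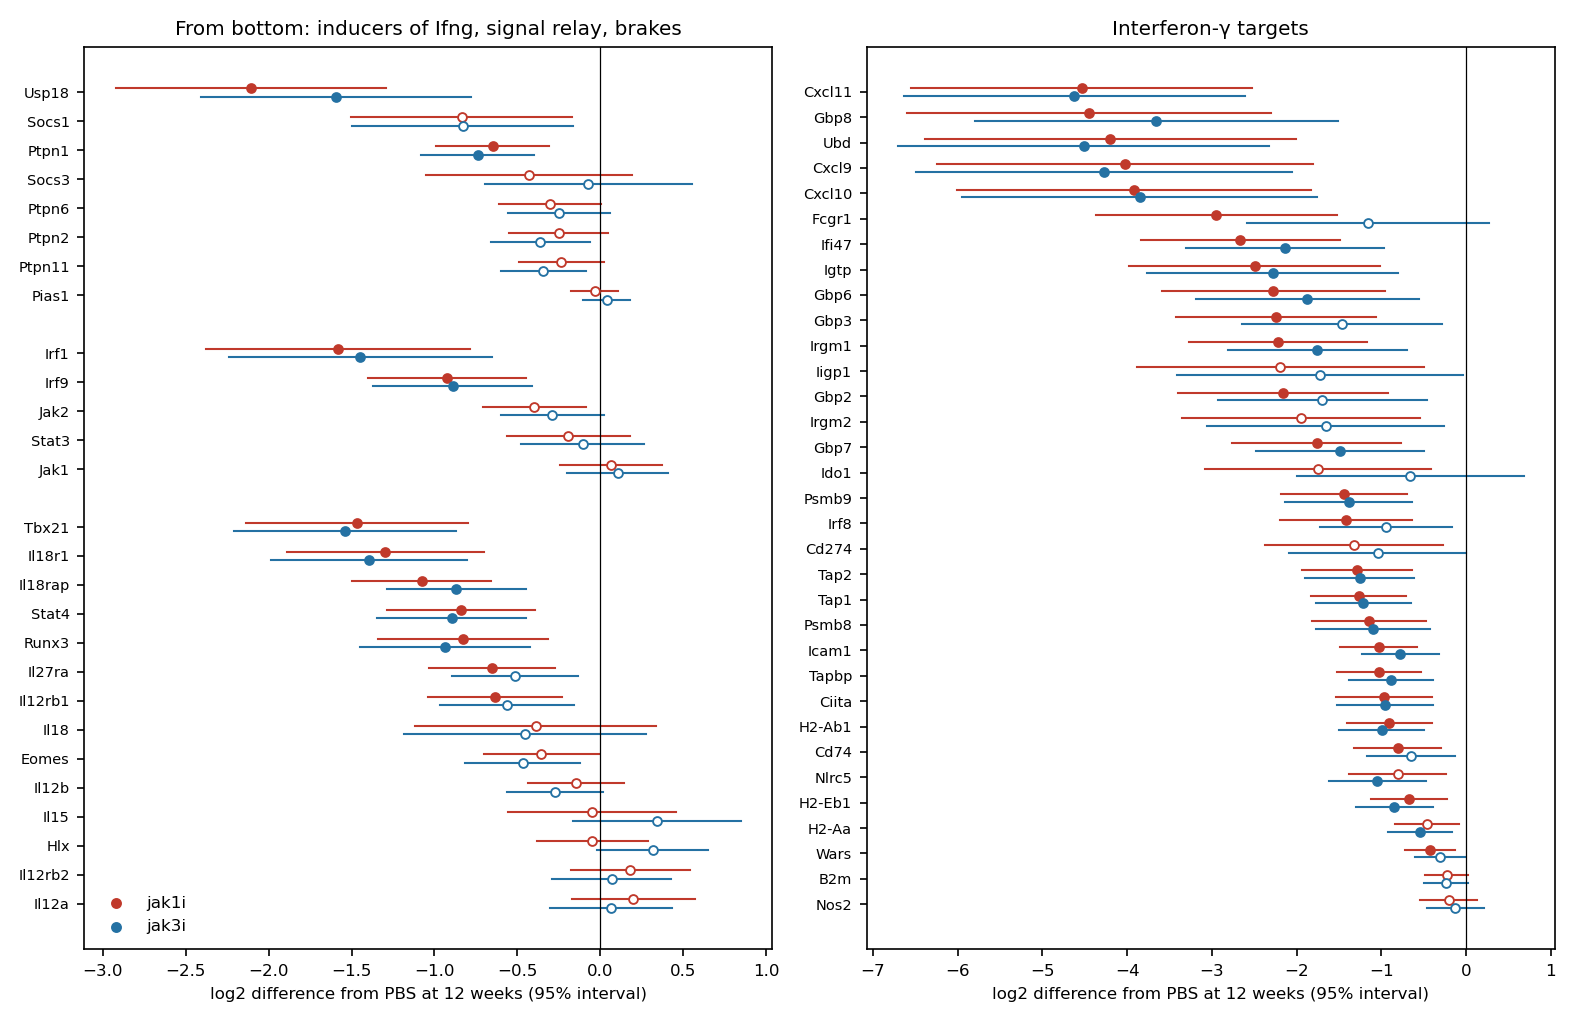
Log2 difference from PBS at 12 weeks (horizontal axes) for inducers of Ifng, relay genes and brakes (left) and for 33 interferon gamma targets (right), under jak1i (red) and jak3i (blue), with 95% intervals and filled points where the limma adjusted p was under 0.05. All 33 targets lie to the left of 0, with Cxcl11 at -4.54 and -4.62, while Jak1 lies at 0.07 and 0.10.

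Some other cytokines of activated T cells were also called lower. Of 11 such cytokine genes, 4 were called lower under each inhibitor at 12 weeks (of all genes 6.51% and 7.28%). Lta, which encodes lymphotoxin alpha, was -1.72 (SE 0.39, limma adjusted p = 0.00835) and -1.61 (SE 0.39, adjusted p = 0.0108). Csf2 was -0.45 and -0.50 and Tnf -0.50 and -0.43, called under both, and Il13 was -0.70 under jak1i. The mean log2 value over the 11 cytokine genes was 4.69 to 5.32 on every array, PBS included, below 6.18, the median of all values. In a list this dim the differences do not give the size of a change in transcript. None of 4 type I interferon genes was called in any comparison of an inhibitor with PBS, with 12-week differences from -0.23 to 0.33. The mean log2 value over these 4 was 4.56 to 5.12 on every array, PBS included, below the median of all values, so a fall was hardly measurable there.

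The receptor relatives of Ifngr1 and Ifngr2, the class II cytokine receptor family, showed no common direction. Of 10 measured, 2 were called higher and 1 lower under jak1i at 12 weeks, and 2 higher and none lower under jak3i; over all genes 6.85% and 10% were called higher. Il20ra, a chain of the IL-20 and IL-24 receptors, was 1.57 (SE 0.36, limma adjusted p = 0.00811) and 1.08 (SE 0.36, adjusted p = 0.0413). Il22ra2, a soluble decoy of IL-22, was 2.75 (adjusted p = 0.0104) and 1.61 (adjusted p = 0.0881), F3, tissue factor, was 0.85 and 0.99, and Il10ra was -1.34 and -0.95. The type I interferon receptor chains Ifnar1 (-0.18 and 0.02) and Ifnar2 (-0.58 and -0.09) were not called.

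Markers of the cells that make interferon gamma were lower on the same arrays as Ifng. Of 9 cytotoxic and natural killer cell genes, 8 were called lower under jak1i and 9 under jak3i at 12 weeks (of all genes 6.51% and 7.28%), and their summed signal was 262 to 791 on the 12 treated arrays and 2155 to 6514.5 on the PBS arrays of 6 and 12 weeks. Gzma and Gzmb, the granzymes, were -4.57 and -5.47, and -4.41 and -4.02, and the receptor chains Klrc1 and Klrd1 were -2.85 and -2.99, and -1.91 and -2.93. Of 11 T cell genes, 6 and 8 were called lower, against the same shares of all genes, with a summed signal of 734 to 1090 on the treated arrays against 1492 to 2248 under PBS. Cd8b1 and Cd8a, the chains of the CD8 coreceptor, were -2.73 and -2.98, and -1.86 and -1.80, Cd2 was -1.29 and -1.82, and Cd3d was -1.23 and -1.49. In whole skin, fewer cells of a type and less Ifng RNA per cell cannot be told apart.

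Other cell types moved differently at 12 weeks. Over all genes, 6.85% (jak1i) and 10% (jak3i) were called higher against PBS there, and 6.51% and 7.28% lower. All 7 muscle genes were called higher under each inhibitor, as the PBS skin of that week was low in muscle. Of 7 hair shaft genes, 2 were called lower under jak1i and 5 under jak3i, with medians of -4.21 and -5.42; Krtap15, Krt33a, Krt86 and Krt34, hair keratin and keratin-associated genes, were -5.82, -5.64, -5.57 and -5.42 under jak3i. Of 7 macrophage genes, 1 was called higher and 1 lower under jak1i and 1 higher under jak3i; of 3 B cell genes 1 was called lower under each. All 5 endothelial genes were called higher under jak3i and none under jak1i, and no epidermis, fibroblast or fat cell gene was called at that week. The part of these cell types in the Ifngr2 difference was not tested beyond the hair and muscle covariates, with which the added difference from PBS was -0.56 (limma adjusted p = 0.00755) and -0.60 (adjusted p = 0.186).

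The genes most like Ifng over the 31 arrays, among 16438 ranked by Pearson r, were Naa20, a subunit of an N-terminal acetyltransferase (0.97), Mitd1 (0.96), the T cell chemokine Ccl1 (0.96), the ubiquitin ligase genes Rnf114 and Rnf19b (0.95 and 0.95), the Schlafen family gene Slfn9 (0.94), Gzmb (0.94), Il18bp, which encodes a soluble inhibitor of IL-18 (0.94), Cxcl11 (0.94) and Gsap (0.94). These correlations are a description over arrays that share the treatment groups. After each group's mean was taken off, they were 0.79 to 0.91, so arrays of 1 group with more Ifng also had more of these transcripts. The genes were picked by r over the same arrays, so a high r within groups is partly a result of that choice. Ifng was most scattered in the 24-week pairs, with an SD of 1.23 under jak1i and 1.89 under jak3i (n = 2 each). Naa20 was -0.93 and -0.71 at 12 weeks and Il18bp -2.15 and -1.99, all called lower by limma.

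**Figure D4:**
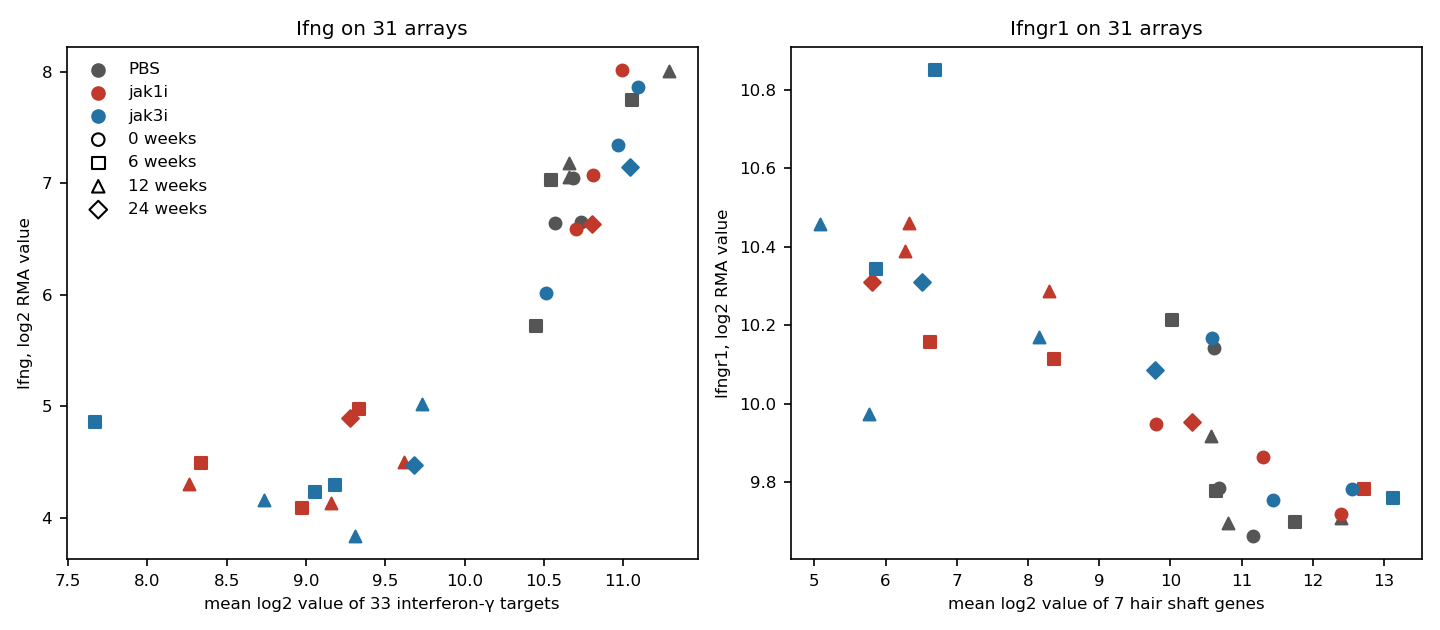
Left: log2 value of Ifng (vertical) against the mean log2 value of 33 interferon gamma targets (horizontal) on 31 arrays. Right: log2 value of Ifngr1 against the mean of 7 hair shaft genes; colours give the arm and shapes the week. On the left the arrays form an upper cloud with Ifng from 5.72 up and a lower cloud up to 5.02, and each 24-week pair has 1 array in each.

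The receptor genes had other neighbours, picked in the same way over the same arrays. Those most like Ifngr1 were Galnt15, an enzyme of mucin-type glycosylation (0.91), the glutathione transferase gene Gsta3 (0.90), Glud1, the mitochondrial glutamate dehydrogenase (0.90), Depp1 (0.89) and the amino acid transporter gene Slc43a1 (0.88), and within groups these were 0.85 to 0.91. Those most like Ifngr2 were Ccl5, Gzmb, Irgm1, Klrc1 and Parp8, at 0.81 to 0.82, and within groups these were 0.14 to 0.34. For Ifngr2 the likeness was thus between group means rather than between arrays of a group.

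At 24 weeks the arrays of each inhibitor held different states. Replicate 1 had high Ifng (6.64 under jak1i and 7.14 under jak3i), a high mean of the 33 targets (10.80 and 11.05), of the 9 cytotoxic genes (6.77 and 7.57) and of the 7 hair shaft genes (10.30 and 9.78). Replicate 2 had low Ifng (4.89 and 4.48), with means of 9.27 and 9.68 for the targets, 5.64 and 6.08 for the cytotoxic genes and 5.81 and 6.52 for the hair shaft genes. All of these were higher on replicate 1 in both arms. From their own start the 24-week arms differed in Ifng by -1.46 (SE 0.67, limma adjusted p = 0.221) under jak1i and -1.26 (SE 0.67, adjusted p = 0.335) under jak3i, where 0.154% and 0.0165% of genes were called lower. Without replicate 2 at 24 weeks these were -0.59 and 0.07, and without replicate 1 they were -2.33 and -2.60, and none of the 33 targets was called at that week in either arm.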

How the data were processed

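Total RNA of mouse skin was labelled for 3' expression arrays, per the labels' protocols. The authors deposited log2 values per probe set, summarised by RMA per the submitters' processing notes, between 2.59 and 14.69; the array files used here name no genome build. Of 45101 probe sets, 34958 carried 1 gene symbol, 932 several and 9211 none; 64 array controls were left out, and the probe set of highest mean was kept for each of 18193 genes. limma 3.58.1 in R 4.3.3 fitted 11 group means to the 31 arrays (20 residual degrees of freedom) with empirical Bayes moderation, and p-values were adjusted by Benjamini-Hochberg over all genes within each of 26 comparisons, 2 of them added after the data had been seen. The members and gene lists were chosen with earlier results of these data known. Named are the members, all inducers, relay genes and brakes, the 4 genes of each other list with the largest 12-week difference from PBS, and the 10 genes most like Ifng and 5 most like each receptor gene. The steps were tested on simulated data. Replicate numbers were checked for pairing: of 39 same-numbered pairs within an arm, 12 had deviations correlated over 0.1 (median -0.05). Between arms, 38 of 107 such pairs did (median -0.01). All pairs did in 2 comparisons: jak3i against PBS at 12 weeks (3 pairs, 0.16 to 0.38) and jak1i against jak3i at 24 weeks (2 pairs, 0.56). The number of arrays limits the precision. Alternatives left out each array, changed the filter, probe set, centring, prior or arrays fitted, and added the replicate block or the hair shaft or muscle mean.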

Additional observations from a re-analysis of the deposited data

Results flagged for a closer look

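The change of Ifng from 0 to 12 weeks differed between the inhibitor arms and PBS by the test of the difference itself. It was -3.54 under jak1i relative to PBS (95% interval -5.31 to -1.78, limma adjusted p = 0.0190) and -3.37 under jak3i (95% interval -5.13 to -1.61, adjusted p = 0.0326). Ifng was lower at 12 weeks on all 3 arrays of each inhibitor arm than on any array of that arm at 0 weeks, as were 19.7% and 17.4% of all genes. In PBS skin the 12-week arrays lay above the 0-week arrays, as for 15.7% of genes. That gap was narrow, with a lowest 12-week value of 7.05 against a highest 0-week value of 7.04. The PBS change itself was not called (0.63, limma adjusted p = 0.663). Both comparisons share the 6 PBS arrays. The PBS skin at 12 weeks was low in muscle genes, and neither value was called with the muscle mean as a covariate (-3.59, adjusted p = 0.637, and -3.41, adjusted p = 0.643), where 0 genes were called in either comparison. With the hair shaft mean they were -2.34 (adjusted p = 0.0940) and -1.91 (adjusted p = 0.356), also not called. The jak1i call was lost without any of 3 arrays and the jak3i call without any of 9 arrays.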

How the results depend on the processing

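Ifng was lower against each arm's own start, both inhibitors together, under all 8 alternatives, and kept its call. Leaving out 1 array gave, for Ifng, -2.87 to -1.86 (jak1i against PBS at 6 weeks), -2.93 to -1.91 (jak3i at 6 weeks), -3.14 to -2.22 (jak3i, 6 against 0 weeks), -3.26 to -2.34 (12 against 0 weeks) and -2.60 to 0.07 (24 against 0 weeks). For Ifngr2 it gave -0.78 to -0.55 and -0.52 to -0.31 (jak3i against PBS at 6 and 12 weeks), -0.67 to -0.34 and -0.65 to -0.49 (jak1i at 6 and 12 against 0 weeks), and -0.89 to -0.61 and -0.76 to -0.47 (jak3i). For Ifngr1 it gave 0.33 to 0.47 and 0.29 to 0.43 (both inhibitors against PBS and start), 0.57 to 0.68 (jak1i against PBS at 12 weeks), and 0.15 to 0.70 (jak3i at 6 weeks, against PBS or start).

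With the hair shaft covariate, calls were lost for Ifng against PBS at 12 weeks (jak1i -1.99, jak3i -1.80), jak3i at 6 weeks (-1.79), jak1i at 12 against 0 weeks (-1.82), jak3i at 6 and 12 against 0 weeks (-1.84 and -1.39), Ifngr2 at 12 against 0 weeks (-0.65 and -0.69) and Ifngr1 over both inhibitors (0.0897 and 0.0231), and the Ifng changes to 12 weeks against PBS (-2.34 and -1.91), and jak1i Ifng at 6 weeks was called (-1.90). With the muscle covariate, calls were lost for Ifng against PBS (jak3i -2.37 at 6 weeks, jak1i -3.15 and jak3i -3.12 at 12 weeks, both -2.74; changes to 12 weeks against PBS -3.59 and -3.41), Ifngr2 (-0.60) and Ifngr1 (0.27 and 0.33) over both inhibitors. With only the compared arrays fitted, calls were lost for Ifng jak3i at 6 weeks (-2.37 against PBS, -2.61 against start), Ifngr2 jak3i at 6 weeks (-0.68 and -0.74) and 12 against 0 weeks (-0.60), jak1i at 6 against 0 weeks (-0.51) and Ifngr1 over both against start (0.36), and Ifngr1 jak1i at 12 weeks was called (0.61 and 0.54). With PBS at 6 weeks as control jak1i Ifng at 12 weeks was -2.52, not called. Centred arrays lost Ifngr1 over both against start (0.31) and called Ifngr2 jak1i at 12 weeks (-0.51). Without dim genes, Ifngr2 (-0.46), Ifngr1 (0.61) at 12 weeks and Ifng at 6 weeks (-2.31) were called for jak1i. The mean of both Ifngr2 probe sets called -0.46, -0.42 and -0.34, and the other probe set -0.38, -0.38 and -0.30 (jak1i at 6 and 12 weeks, jak3i at 12 weeks, against PBS). Apart from the construction of each alternative, the cause was not tested.

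The replicate block changed no member call; with it, jak3i against PBS at 12 weeks, where the numbers paired, called 2828 genes in place of 3148. Genes called at 12 weeks against PBS were 2431 and 3148, and 184 and 113 with the hair covariate, 0 and 0 with muscle, and 15 and 419 with PBS at 6 weeks as control.

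Small uncalled differences changed sign. For Ifngr1 these were, with hair, -0.0066 and -0.0024 (jak1i at 6 and 24 against 0 weeks), -0.18 and -0.0183 (jak3i at 12 and 24 against 0 weeks), 0.17 (jak3i, 24 against 12 weeks), -0.039 and -0.14 (changes against PBS, jak1i to 6 and jak3i to 12 weeks), and 0.0124, -0.0266 and -0.0317 (against PBS, jak1i at 0 and 6 and jak3i at 12 weeks). For jak3i from 12 to 24 weeks it was 0.0643 with centring, 0.0161 with muscle and 0.0197 with the replicate block, and in PBS -0.0261 (centring, 6 weeks) and 0.10 (muscle, 12 weeks). For Ifng they were -0.12 (hair, between inhibitors at 6 weeks) and -0.0074 (centring, PBS at 6 weeks). For Ifngr2 they were -0.10 (mean of probe sets, between inhibitors at 24 weeks), and on the other probe set 0.0523 (jak3i against PBS at 0 weeks), 0.052 and 0.0079 (PBS at 6 and 12 weeks) and -0.0138 and -0.28 (between inhibitors at 6 and 24 weeks). Leaving out arrays, Ifng ran from -0.38 to 0.54, -0.17 to 0.27, -0.28 to 0.31 and -1.38 to 1.29 between inhibitors at 0, 6, 12 and 24 weeks, -0.10 to 0.82 for jak3i against PBS at 0 weeks and -0.41 to 0.61 in PBS at 6 weeks. Ifngr1 ran from -0.12 to 0.12 and -0.10 to 0.18 against PBS at 0 weeks, -0.13 to 0.0755 and -0.24 to 0.11 between inhibitors at 0 and 24 weeks, -0.12 to 0.13 for jak3i from 12 to 24 weeks, and -0.13 to 0.17 and -0.19 to 0.0489 in PBS. Ifngr2 ran from -0.24 to 0.0447, -0.0212 to 0.31 and -0.15 to 0.0616 between inhibitors, and -0.19 to 0.10 for jak3i at 0 weeks.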
